A study of Mus musculus with 7 samples.

Results

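The integrin and tetraspanin genes were described in 5 mouse B-cell acute lymphoblastic leukaemia (B-ALL) samples. They were taken by name, as every gene entry for an integrin alpha or beta subunit (18 and 8 genes), a numbered Tspan gene, or Cd9, Cd37, Cd53, Cd63, Cd81, Cd82 or Cd151 (27 tetraspanins), which gave 53 of 24726 entries. All samples were on the C57BL/6 background. The 3 Pax5-Etv6 B-ALL samples were whole lymph node taken directly from mice with the genotype Cdkn2ab+/- Pax5Etv6/+, in which 1 allele of Pax5, the B-lineage commitment factor, carries a fusion to Etv6 and 1 copy of the Cdkn2a-Cdkn2b tumour-suppressor locus is lost. The 2 control B-ALL samples were whole bone marrow after short-time culture, with the genotype Trp53-/- NrasG12D/+ and a retroviral Myc, so they lack p53 and carry an activated Nras allele. The sources give no age, nor do they say if replicates were different mice, and the p-values therefore reflect library-to-library spread, which may be technical. Organ, culture and the cDNA protocol recorded in the labels follow the groups and cannot be told apart from genotype. Levels are given as TPM, a transcript abundance scaled by transcript length and library size, so levels can be compared between genes.

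Integrins are receptors made of 1 alpha and 1 beta subunit that bind matrix proteins or counter-receptors on other cells. Blood cells use the beta2 family to bind ICAM proteins, and the alpha4 and alpha5 subunits with beta1 to bind VCAM-1 and fibronectin in bone marrow. Tetraspanins are small proteins with 4 membrane passes that gather integrins, immune receptors and proteases into membrane domains. Cd81 is broadly expressed, and Cd37 and Cd53 are largely restricted to blood cells.

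Promoter sequences were available for 44 of the 53 genes, as 56 windows of 300 bases that run from 250 before to 50 after an annotated start (RefSeq, build GRCm38.p6). The 4 below are those of 2 genes that were higher in Pax5-Etv6 B-ALL (Cd37 and Tspan31) and of 2 that were lower (Itgb1 and Tspan3), shown as examples of each direction. Each is given 5′ to 3′, and capitals mark matches on either strand to the ETS core CCGGAA, chosen because Etv6 belongs to the ETS family.
Cd37, chr7:45238790-45239089, minus strand: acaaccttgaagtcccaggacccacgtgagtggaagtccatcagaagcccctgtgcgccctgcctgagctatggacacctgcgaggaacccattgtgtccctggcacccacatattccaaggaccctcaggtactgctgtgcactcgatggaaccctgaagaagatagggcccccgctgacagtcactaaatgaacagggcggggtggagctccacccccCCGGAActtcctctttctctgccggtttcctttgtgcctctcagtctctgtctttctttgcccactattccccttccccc
Tspan31, chr10:127070212-127070511, minus strand: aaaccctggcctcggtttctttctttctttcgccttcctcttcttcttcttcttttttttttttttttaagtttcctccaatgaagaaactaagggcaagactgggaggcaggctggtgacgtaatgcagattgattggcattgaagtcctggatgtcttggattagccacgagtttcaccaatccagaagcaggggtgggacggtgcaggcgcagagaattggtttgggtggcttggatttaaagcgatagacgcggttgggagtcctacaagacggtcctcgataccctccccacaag
Itgb1, chr8:128685404-128685703, plus strand: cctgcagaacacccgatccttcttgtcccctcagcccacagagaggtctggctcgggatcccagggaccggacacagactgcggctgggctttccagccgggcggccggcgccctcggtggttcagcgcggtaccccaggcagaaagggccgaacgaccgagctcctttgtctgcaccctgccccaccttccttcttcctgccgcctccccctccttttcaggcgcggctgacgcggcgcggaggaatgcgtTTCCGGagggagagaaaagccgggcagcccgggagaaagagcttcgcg
Tspan3, chr9:56161021-56161320, minus strand: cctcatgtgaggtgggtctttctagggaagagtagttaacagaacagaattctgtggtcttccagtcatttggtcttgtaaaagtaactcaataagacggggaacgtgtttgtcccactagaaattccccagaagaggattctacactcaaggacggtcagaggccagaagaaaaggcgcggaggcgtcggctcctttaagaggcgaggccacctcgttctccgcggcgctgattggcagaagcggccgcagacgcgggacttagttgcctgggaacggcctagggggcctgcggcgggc
Cd37 and Itgb1, which differed in opposite directions, each held 1 match, and the letters were not in the windows of Tspan31 and Tspan3. CCGGAA was present on either strand in 8 of the 56 integrin and tetraspanin windows (14.3%) and in 14.9% of all 32851 windows. It was in 2 of the 12 windows of genes called higher by the test below and in 1 of the 9 windows of genes called lower. The GC box GGGCGG was in 44.6% of the members' windows against 35.7% of all, GAGGAA, which shares GGAA with the ETS core, in 33.9% against 28.3%, and the TATA box TATAAA in 3.57% against 13.6%. These are matches of letters and not sites of binding.

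Of the 53 genes, 32 reached 1 TPM in at least 2 of the 5 libraries and were tested with limma on log2(TPM + 1), together with all other genes that passed this filter. At a Benjamini-Hochberg adjusted p under 0.05, 11 were higher and 9 lower in Pax5-Etv6 B-ALL and 12 were not called, so that 62.5% of those tested were called. Over all 11805 genes tested 51.7% were called, 21.9% higher and 29.7% lower, so the share among these genes is near the background. The libraries of the 2 groups did not overlap in 24 of the 32 genes, against 72.2% of all genes tested. Among integrins 4 were higher and 5 lower of 15 tested, and among tetraspanins 7 were higher and 4 lower of 17. The median log2 fold change was -0.60 for alpha subunits, 0.69 for beta subunits and 0.68 for tetraspanins, beside -0.11 for all genes tested. That overall median became 0.00 under median-of-ratios scaling and 0.01 with voom on recovered reads. Without control B-ALL replicate 1 only 5 of these genes were called higher and 2 lower, and without Pax5-Etv6 B-ALL replicate 3 there were 7 higher and 8 lower.

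**Figure D1:**
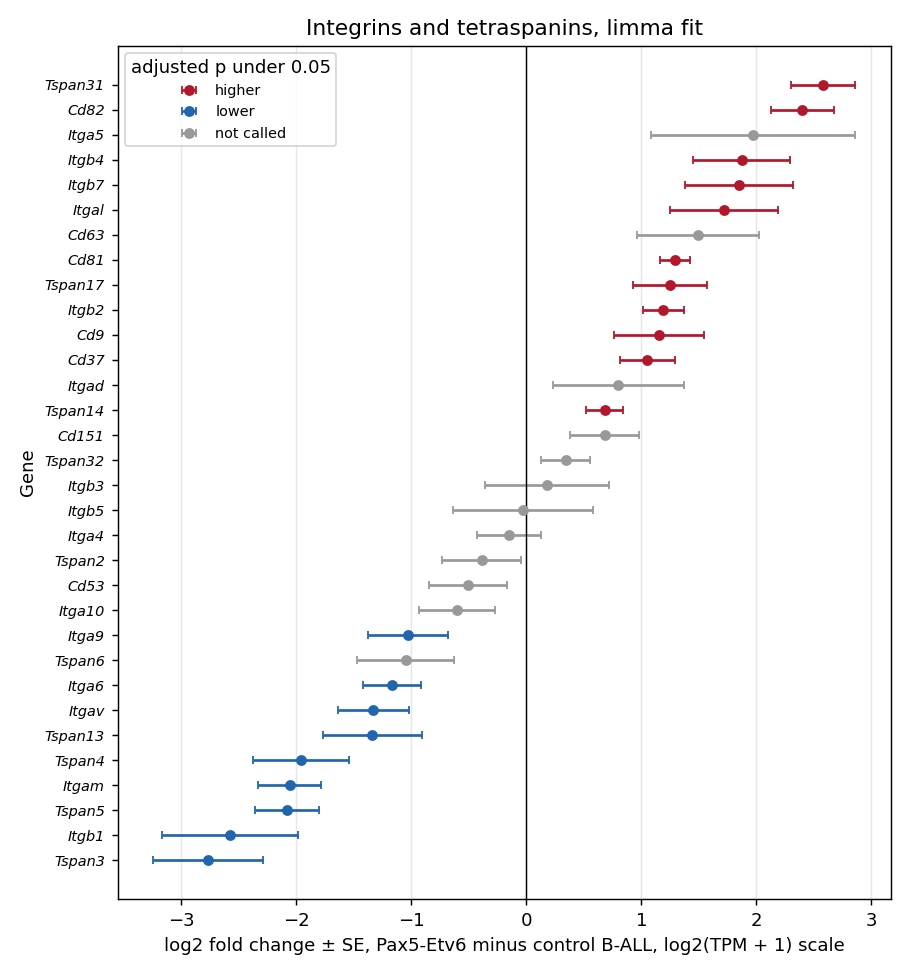
Log2 fold change with its standard error (x axis, Pax5-Etv6 minus control B-ALL on the log2(TPM + 1) scale) for each of the 32 genes tested (y axis), coloured by call at a limma adjusted p under 0.05. Tspan31 and Cd82 stand at the high end and Tspan3 and Itgb1 at the low end.

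The beta subunit with the highest level was Itgb2 in all 3 Pax5-Etv6 libraries and Itgb1 in both controls. Itgb2 encodes CD18, the shared chain of the leukocyte integrins, and stood at 101, 89.2 and 85.8 TPM in Pax5-Etv6 replicates 1, 2 and 3 and at 34.7 and 45.2 TPM in control replicates 1 and 2. Every Pax5-Etv6 library lay above both controls (log2 fold change 1.19 ± 0.18 SE, limma adjusted p = 0.0029). Itgb1 encodes CD29, the partner of most matrix-binding alpha subunits, and stood at 8.14, 35.8 and 27.9 TPM against 155 and 104 TPM. The groups did not overlap, with Pax5-Etv6 replicate 1 far below the other libraries (-2.58 ± 0.59 SE, limma adjusted p = 0.012). Per library, the ratio of Itgb2 to Itgb1 was 12.4, 2.49 and 3.08 in Pax5-Etv6 B-ALL and 0.223 and 0.436 in the controls. Itgb1 made up 5.92%, 23.2% and 19.7% of the summed TPM of the 8 beta subunits in Pax5-Etv6 B-ALL and 77.1% and 63% in the controls. The Itgb1 call was lost without control replicate 1 (limma adjusted p = 0.136) or control replicate 2 (0.0707), whereas that of Itgb2 held in every setting tried. These are bulk samples, in which fewer cells of a type and less RNA per cell cannot be told apart.

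Itgb7 and Itgb4 were also higher, at lower levels. Itgb7, which pairs with alpha4 to form the gut-homing receptor for MAdCAM-1, stood at 9.94, 3.75 and 3.45 TPM against 0.449 and 1.01 TPM. Its highest level was in Pax5-Etv6 replicate 1, the library in which Itgb1 was lowest (1.85 ± 0.47 SE, limma adjusted p = 0.0173). Itgb4, the epithelial partner of alpha6, stood at 6.39, 11.6 and 9.48 TPM against 2.98 and 0.861 TPM, again without overlap (1.87 ± 0.42 SE, limma adjusted p = 0.0121). The Itgb7 call was lost without control replicate 1 (limma adjusted p = 0.141) or 2 (0.0692), and the Itgb4 call without control replicate 2 (0.0674). Itgb4 carries an overlap tag in the deposited names, and in RefSeq it overlaps the galactokinase gene Galk1, also tagged, which stood at 308 TPM in Pax5-Etv6 B-ALL and 327 TPM in the controls on average. Itgb3, the platelet and osteoclast subunit, overlapped between groups at 10.4, 3.14 and 11.2 against 4.6 and 8.65 TPM (limma adjusted p = 0.796). Itgb5, a partner of alphaV, overlapped as well, at 1.66, 10.4 and 3.35 against 3.38 and 5.18 TPM (limma adjusted p = 0.971). Itgb6 and Itgb8, epithelial partners of alphaV, were at 0 TPM in the controls and reached at most 0.0149 and 0.249 TPM in any Pax5-Etv6 library.

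**Figure D2:**
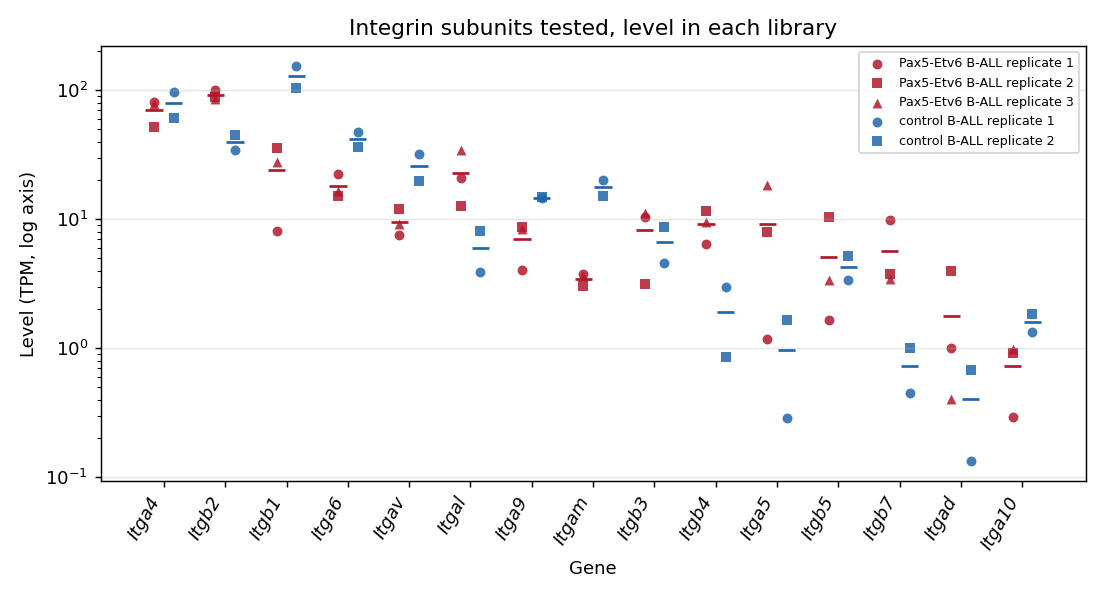
Level of each of the 15 integrin subunits tested (x axis, ordered by mean level) in each library (y axis, TPM on a log axis), with a symbol per library and a bar for each group's mean. Itgb2 lies above and Itgb1 below the controls in all 3 Pax5-Etv6 libraries, and Itga4 overlaps between the groups.

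Itga4, the VLA-4 alpha chain that binds VCAM-1, was the alpha subunit with the highest level in all 5 libraries. It stood at 81.6, 51.6 and 78.6 TPM in Pax5-Etv6 B-ALL and 97.1 and 61.1 TPM in the controls. These ranges overlapped (-0.15 ± 0.28 SE, limma adjusted p = 0.672), and the sign of the difference turned without Pax5-Etv6 replicate 2 (0.05) or control replicate 1 (0.18). Itga4 carries an overlap tag; in RefSeq it overlaps Cerkl, also tagged, which had a mean of 1.79 and 1.54 TPM in Pax5-Etv6 and control B-ALL. Its share of the summed TPM of the 18 alpha subunits ran from 42.3% to 56.3% in Pax5-Etv6 B-ALL and was 44.5% and 37.9% in the controls.

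The alpha subunits that pair with beta2 exchanged places. Itgal, the LFA-1 alpha chain of lymphocytes that binds ICAM proteins, stood at 21, 12.7 and 34.6 TPM in Pax5-Etv6 B-ALL and 3.91 and 8.12 TPM in the controls. All 3 libraries lay above both controls (1.72 ± 0.47 SE, limma adjusted p = 0.0227). Itgam, the Mac-1 alpha chain CD11b known from myeloid cells, stood at 3.77, 3.01 and 3.6 TPM against 20.2 and 15.2 TPM. It was 5.11-fold higher in the controls by group means, with no overlap (-2.06 ± 0.27 SE, limma adjusted p = 0.00187). The ratio of Itgal to Itgam was 5.58, 4.22 and 9.61 in Pax5-Etv6 B-ALL and 0.194 and 0.535 in the controls, while the summed TPM of Itgal, Itgam, Itgax and Itgad ran from 20.8 to 39.2 in Pax5-Etv6 B-ALL and was 24.3 and 24 in the controls. The Itgam call held in every setting tried. The Itgal call was lost without control replicate 1 (limma adjusted p = 0.188), control replicate 2 (0.0548) or Pax5-Etv6 replicate 3 (0.0508), and with no filter (0.0575). Itgad, also a beta2 partner and overlap-tagged, stood at 1, 3.94 and 0.404 TPM against 0.133 and 0.68 TPM (limma adjusted p = 0.269). Itgax, the CD11c chain of dendritic cells, reached 1.18 TPM in Pax5-Etv6 replicate 2 and was below the filter.

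The beta2 partners mark myeloid and lymphoid cells, so the markers of such cells are given beside them. All 16 neutrophil marker entries stood below 1 TPM in the controls, where their sum was 1.09 and 1.17 TPM; it was 306, 41.2 and 173 TPM in Pax5-Etv6 B-ALL, and 13 of 13 tested were called higher. The 19 macrophage and monocyte marker entries summed to 386, 743 and 383 TPM in Pax5-Etv6 B-ALL and 126 and 196 TPM in the controls, with 5 of 13 tested called higher and none lower. Itgam had its highest levels in the libraries with the lowest sums for both lists, and which cells gave these levels was not tested. For Itgb2 and Itgal, which neutrophils, macrophages and T cells also express, the part of these cells was not tested. The 15 T-cell marker entries summed to 210.4, 563 and 540.5 TPM against 12.6 and 14.9 TPM, and 6 of 6 tested were called higher, while 8 of the 15 stayed under 1 TPM in every Pax5-Etv6 library. Among the defining markers, Trac stood at 4.47, 0.8 and 2.59 TPM against 0.233 and 0 TPM and Cd4 at 0.805, 4.27 and 1.7 TPM against 0 and 0 TPM, and both were called (limma adjusted p = 0.0378 and 0.0337). The Cd4 call was lost with no filter (limma adjusted p = 0.058), a pseudocount of 5 TPM (0.0815) or without Pax5-Etv6 replicate 3 (0.0701). It was also lost without control replicate 1 or 2, with a log2 fold change of 1.56 each time. Cd247, overlap-tagged, reached 1.09 TPM, Cd3d, Cd3e and Cd3g at most 0.637 TPM and Bcl11b at most 0.0481 TPM. Most of the sum was the kinase Lck, overlap-tagged, at 181, 465 and 428 TPM in Pax5-Etv6 B-ALL. Thy1 and Cd5, also on the list, were called higher as well. The Cd5 call was lost without control replicate 1 or 2 (log2 fold change 1.63 and 2.00). Thy1 stood at 2.5, 23.1 and 32.7 TPM against 0.139 and 0.0471 TPM (limma adjusted p = 0.0173, and 0.051 with no filter). Its call was also lost without control replicate 1 or 2 (log2 fold change 3.76 and 3.64).

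Itga6, Itgav and Itga9, partners of beta1 among others, were lower in Pax5-Etv6 B-ALL. Itga6, a laminin-binding chain, stood at 22.5, 15.1 and 16.6 TPM against 47.4 and 36 TPM (-1.17 ± 0.25 SE, limma adjusted p = 0.00974). Itgav, which binds vitronectin and latent TGF-beta, stood at 7.48, 12 and 9.21 TPM against 31.9 and 19.8 TPM (-1.33 ± 0.31 SE, limma adjusted p = 0.0132). Itga9, which binds tenascin and VCAM-1, stood at 4.05, 8.65 and 8.36 TPM against 14.6 and 14.8 TPM (-1.03 ± 0.35 SE, limma adjusted p = 0.0487). In these 3 genes, as in Itgb1, no library of one group reached the other. The calls of Itga6 and Itgav were lost without control replicate 1 (limma adjusted p = 0.0812 and 0.1). That of Itga9 was lost without any one of control replicate 1 (0.191), control replicate 2 (0.174), Pax5-Etv6 replicate 2 (0.0597) or Pax5-Etv6 replicate 3 (0.062), and with a pseudocount of 0.1 TPM (0.053), no filter (0.106) or rescaling without the 50 highest genes (0.0526). The summed TPM of the 12 alpha subunits that can pair with beta1 was 118, 99.9 and 134 in Pax5-Etv6 B-ALL and 193 and 136 in the controls.

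Itga5, the fibronectin receptor chain, varied widely among the Pax5-Etv6 libraries. It stood at 1.18, 7.97 and 18.3 TPM against 0.286 and 1.65 TPM, so that Pax5-Etv6 replicate 1 lay between the controls and the other two did not overlap them. It was not called (1.97 ± 0.89 SE, limma adjusted p = 0.106), but was called without Pax5-Etv6 replicate 1 (limma adjusted p = 0.00533). Itga5 carries an overlap tag. Itga10, a collagen receptor chain, stood at 0.293, 0.917 and 0.983 TPM against 1.34 and 1.83 TPM and was not called (limma adjusted p = 0.163). The collagen receptor chains Itga1 and Itga11 and the laminin receptor chain Itga7, overlap-tagged, reached at most 1.01, 1.38 and 1.07 TPM, in Pax5-Etv6 replicates 3, 2 and 2. Itga2, Itga2b, Itga3, Itga8 (overlap-tagged) and Itgae stayed under 1 TPM in every library. Stromal and endothelial markers summed to 332, 1127 and 532 TPM in Pax5-Etv6 B-ALL and 85.5 and 112 TPM in the controls (7 of 11 tested entries called higher). Their sum was highest in Pax5-Etv6 replicate 2, as was that of the macrophage and monocyte markers (743 TPM). Itga11, Itga7, Itgb4, Itgb5, Itgad, Itgax and Cd63, among others, were also at their highest there, whereas Itga1 and Itga5 were highest in Pax5-Etv6 replicate 3. The part of stromal, endothelial or macrophage cells in these levels was not tested.

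**Figure D3:**
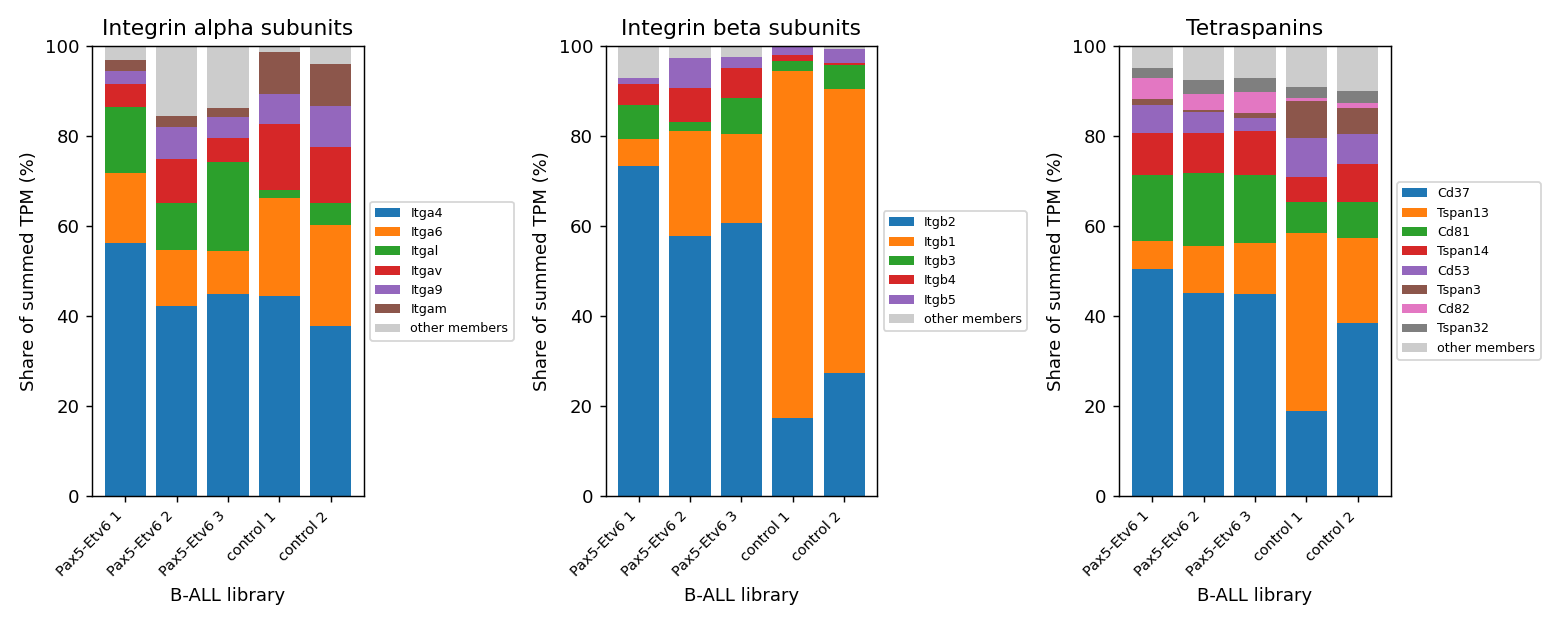
Share of the summed TPM (y axis, percent) held by the leading alpha subunits, beta subunits and tetraspanins in each library (x axis), with all other members of the class in light grey. Itgb2 is the larger block of the beta subunits in the 3 Pax5-Etv6 libraries and Itgb1 in the 2 controls.

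Tetraspanins were far more abundant than integrins, with a summed level of 1694, 1534 and 1689.6 TPM over the 27 genes in Pax5-Etv6 B-ALL and 1505 and 1251 TPM in the controls. Cd37 led in all 3 Pax5-Etv6 libraries, at 855, 692 and 758 TPM, against 284 and 481 TPM in the controls (2.01-fold by group means). Every Pax5-Etv6 library lay above both controls (1.05 ± 0.24 SE, limma adjusted p = 0.0131), although the call was lost without control replicate 1 (0.0561). Cd37 held 50.5%, 45.1% and 44.9% of the tetraspanin TPM in Pax5-Etv6 B-ALL and 18.9% and 38.5% in the controls. Cd53, like Cd37 largely restricted to blood cells, stood at 108, 70.8 and 50.8 TPM against 129 and 84.3 TPM, and the groups overlapped (-0.51 ± 0.34 SE, limma adjusted p = 0.248). The ratio of Cd37 to Cd53 was 7.91, 9.78 and 14.9 in Pax5-Etv6 B-ALL and 2.21 and 5.71 in the controls.

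Cd81 and Cd82 were higher in Pax5-Etv6 B-ALL and kept their calls in every setting that tested them; both carry an overlap tag and so were left out of the fit without tagged entries. Cd81, a broadly expressed tetraspanin of lymphocytes, stood at 250.2, 247 and 257 TPM against 105 and 99.9 TPM. Its libraries were close together within each group and clearly apart between groups (1.29 ± 0.13 SE, limma adjusted p = 0.000834). Cd82, known as a suppressor of cell migration, stood at 81.5, 54.9 and 80.9 TPM against 10.3 and 15.6 TPM. That was 5.6-fold by group means, with no overlap (2.40 ± 0.27 SE, limma adjusted p = 0.00122).

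Tspan31 had the highest log2 fold change of the integrins and tetraspanins tested on the log2(TPM + 1) scale. With a pseudocount of 5 TPM it was 1.90, below Cd82 (2.11), and with voom 3.00, below Itgb7 (3.05), and by group means Itga5 and Itgb7 had larger ratios (9.47 and 7.84). Tspan31 stood at 30, 20.9 and 33.4 TPM in Pax5-Etv6 B-ALL and 3.89 and 3.65 TPM in the controls, which was 7.45-fold by group means (2.58 ± 0.28 SE, limma adjusted p = 0.00106), and the call held in every setting tried. In RefSeq the gene overlaps Cdk4, the kinase of the D-type cyclins, which stood at 682 and 784 TPM on average in Pax5-Etv6 and control B-ALL and was not called (limma adjusted p = 0.259). Tspan31 carries no overlap tag. The sources do not state if reads were counted by strand, and if they were not, the reads of overlapping genes on opposite strands cannot be told apart.

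Tspan14, Tspan17 and Cd9 were higher by smaller or less stable margins. Tspan14 and Tspan17 belong to the group of tetraspanins that escort the protease Adam10 to the cell surface. Tspan14 stood at 156, 138 and 163 TPM against 84.9 and 106 TPM (0.68 ± 0.16 SE, limma adjusted p = 0.0148), and Tspan17 at 5.04, 4.74 and 5.05 TPM against 0.927 and 2.26 TPM (1.25 ± 0.32 SE, limma adjusted p = 0.0189). Neither gene overlapped between groups, but both calls were lost without control replicate 1 (limma adjusted p = 0.0649 and 0.0699) and without Pax5-Etv6 replicate 3 (0.0578 and 0.0566), and that of Tspan17 also with no filter (0.0544). Cd9, a partner of beta1 integrins, stood at 3.72, 3.05 and 3.58 TPM against 0.363 and 1.92 TPM (1.15 ± 0.39 SE, limma adjusted p = 0.0455). Its call was lost without Pax5-Etv6 replicate 1 (limma adjusted p = 0.0651), 2 (0.075) or 3 (0.108) or control replicate 1 (0.153), and with a pseudocount of 0.1 TPM (0.0576) or no filter (0.0906). RefSeq lists pseudogenes of Cd9 and Cd63, with which reads may be shared.

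Tspan3, Tspan4, Tspan5 and Tspan13 were lower in Pax5-Etv6 B-ALL. Tspan3 had the lowest log2 fold change of the 32 integrins and tetraspanins tested, at 19.4, 6.43 and 16.5 TPM against 123 and 71.1 TPM, 6.89-fold by group means (-2.77 ± 0.48 SE, limma adjusted p = 0.00468). Tspan5, another escort of Adam10, stood at 6.72, 8.81 and 11.4 TPM against 45.3 and 36.2 TPM (-2.08 ± 0.28 SE, limma adjusted p = 0.00199). So of the Adam10 escorts that passed the filter, Tspan5 was lower and Tspan14 and Tspan17 were higher. Tspan4, known as a marker of migrasomes and overlap-tagged, stood at 5.12, 15.8 and 10 TPM against 39.8 and 39.2 TPM (-1.96 ± 0.42 SE, limma adjusted p = 0.01). In RefSeq it overlaps Chid1, also tagged, which was lower too, at 9.68 against 16 TPM on average (limma adjusted p = 0.0447). Tspan13 stood at 103, 161 and 191 TPM against 594 and 235 TPM, with control replicate 1 far above every other library (-1.34 ± 0.43 SE, limma adjusted p = 0.0394). It held 39.5% of the tetraspanin TPM in control replicate 1, where it exceeded Cd37, and 18.8% in control replicate 2.

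Without control replicate 1 the calls of Tspan3 (limma adjusted p = 0.072), Tspan4 (0.0967) and Tspan13 (0.262) were lost, while that of Tspan5 held in every setting tried. The Tspan4 call was also lost without control replicate 2 (0.0765), and that of Tspan13 without Pax5-Etv6 replicate 1 (0.0655) or 2 (0.0544), with no trend (0.0587) and with no filter (0.0895); without control replicate 1 the log2 fold change of Tspan13 was -0.67.

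**Figure D4:**
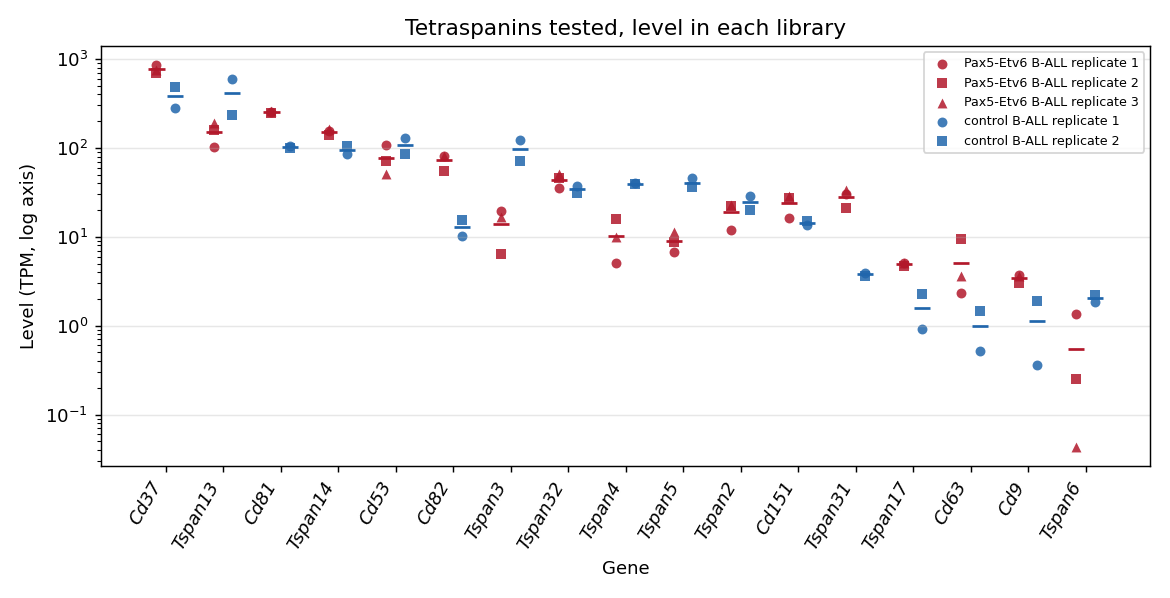
Level of each of the 17 tetraspanins tested (x axis, ordered by mean level) in each library (y axis, TPM on a log axis), with a symbol per library and a bar for each group's mean. Cd37, Cd81, Cd82 and Tspan31 lie above the controls in all 3 Pax5-Etv6 libraries and Tspan3, Tspan4 and Tspan5 below them.

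The tetraspanins that were not called include genes of substantial level. Tspan32, a regulator of lymphocyte activation, stood at 35.4, 46.2 and 50.6 TPM against 37.2 and 31.4 TPM (limma adjusted p = 0.216), and Tspan2, overlap-tagged, at 11.9, 22.2 and 22.7 TPM against 29.1 and 20.2 TPM (limma adjusted p = 0.361). Cd151, a partner of laminin-binding integrins, stood at 16.2, 27.6 and 28.7 TPM against 13.7 and 14.9 TPM without overlap. It was not called (0.68 ± 0.30 SE, limma adjusted p = 0.0967) but was under median-of-ratios scaling (0.0377), quantile normalization (0.0276) and without Pax5-Etv6 replicate 1 (0.0145). Cd63, of late endosomes and exosomes, stood at 2.36, 9.36 and 3.65 TPM against 0.516 and 1.48 TPM (limma adjusted p = 0.0544), without overlap, and was called without Pax5-Etv6 replicate 1 and under 5 other settings (lowest adjusted p 0.0185). Tspan6 stood at 1.36, 0.25 and 0.0433 TPM against 1.83 and 2.22 TPM (limma adjusted p = 0.0737), called without Pax5-Etv6 replicate 1 (0.0104). Tspan7, Tspan9, Tspan15 and Tspan33 passed 1 TPM in 1 library each, at 3.13 TPM in control replicate 2, 1.18 TPM in Pax5-Etv6 replicate 2, 1.07 TPM in control replicate 1 and 1.27 TPM in Pax5-Etv6 replicate 1. Tspan1, Tspan8, Tspan10, Tspan11, Tspan12 and Tspan18 stayed under 1 TPM in every library.

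Pax5-Etv6 replicate 1 was the lowest of its group in 14 of the 32 tested integrins and tetraspanins (43.8%) and in 56.3% of all genes tested. Pax5-Etv6 replicate 2 was the lowest in 13 of the 32 (40.6%), against 23.3% of all genes tested. Recovered reads, which are lower bounds, totalled 20110795 to 50994959 per library. B-lineage markers were present in every library, with all 15 entries at 1 TPM or more in at least 1 library of each group and sums of 10389.5 to 15498 TPM in Pax5-Etv6 B-ALL and 4042 and 5309 TPM in the controls.

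Among genes that act with integrins inside the cell, more were called higher than lower. Of 44 tested adaptors and activators, 20 were higher, 5 lower and 19 not called (56.8% called, beside 51.7% of all genes; median log2 fold change 0.63). Talin-1, Tln1, which binds beta tails to activate integrins, stood at 370.4, 348 and 333 TPM against 81.7 and 130.4 TPM (1.75 ± 0.21 SE, limma adjusted p = 0.00153). Rasgrp2, which loads the small GTPase Rap1 ahead of integrin activation, was the adaptor with the largest rise (2.58 ± 0.19 SE, limma adjusted p = 0.000508), followed among abundant genes by the myosin Myo1g (2.06 ± 0.26 SE, limma adjusted p = 0.00179). Cyth1, cytohesin-1, which binds the beta2 tail, rose by 1.64 ± 0.20 SE (limma adjusted p = 0.00157). Kindlin-3, Fermt3, named after its values were seen and overlap-tagged, stood at 387, 378 and 381 TPM against 116 and 145 TPM (1.55 ± 0.15 SE, limma adjusted p = 0.000765).

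The second talin and the focal adhesion kinase went the other way. Tln2 stood at 0.0685, 0.272 and 0.0754 TPM against 29.4 and 8.07 TPM (-3.87 ± 0.52 SE, limma adjusted p = 0.00206). Ptk2, the focal adhesion kinase, stood at 2.63, 0.64 and 0.382 TPM against 17.7 and 23.8 TPM (-3.42 ± 0.47 SE, limma adjusted p = 0.00214). Both were low in every Pax5-Etv6 library and clearly present in both controls. The GTPases Rap1a and Cdc42 were lower by -1.15 and -0.91 on the log2 scale (limma adjusted p = 0.026 and 0.0115). The Cdc42 call was lost without control replicate 1 (0.0603), and that of Rap1a without control replicate 1 (0.15), Pax5-Etv6 replicate 2 (0.0642) or 3 (0.0639), under median-of-ratios scaling (0.0516) and with no filter (0.0565).

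Of 27 tested integrin ligands, 12 were higher, 2 lower and 13 not called (51.9% called; median 1.01). Of the 4 ICAM genes on the list, named after their values were seen, 3 were called higher and 1 was not tested. Icam1 stood at 53.7, 65.4 and 76.8 TPM against 38.5 and 30.7 TPM (limma adjusted p = 0.0141), and Icam2 at 199, 196 and 167 TPM against 90 and 130.1 TPM (limma adjusted p = 0.0172). The Icam1 call was lost without control replicate 2 (0.0771) and that of Icam2 without control replicate 1 (0.073) or Pax5-Etv6 replicate 2 (0.0538). Icam4 stood at 1.12, 2.55 and 2.61 TPM against 0.53 and 0.45 TPM (limma adjusted p = 0.0484), a call lost without any one of 4 libraries and under 4 other settings (0.0519 to 0.146). Icam5, below the filter, was lower in every Pax5-Etv6 library, at 0.124, 0.111 and 0.0512 TPM against 0.725 and 0.247 TPM. Vcam1, the ligand of alpha4beta1, stood at 10.2, 39.5 and 9.7 TPM against 0.0283 and 0.168 TPM (3.95 ± 0.61 SE, limma adjusted p = 0.00321; 0.0525 without control replicate 1). The matrix genes Col1a1 and Col4a1 and the complement gene C3, overlap-tagged, had log2 fold changes of 5.37, 3.89 and 3.80 (limma adjusted p = 0.00473, 0.0145 and 0.0015). Col1a1 had 45.6, 405 and 85.2 TPM in Pax5-Etv6 B-ALL. Its highest level was in the library that was highest for stromal markers, a list that includes Col1a1 itself. The Col1a1 call was lost without control replicate 1 (0.0766) and that of Col4a1 without control replicate 1 (0.145) or 2 (0.0893) and with voom (0.0617). Both lower genes were membrane proteases, Adam9 (-1.87 ± 0.28 SE, limma adjusted p = 0.0029) and Adam17 (-0.65 ± 0.18 SE, limma adjusted p = 0.0241), the latter overlap-tagged and lost without control replicate 1 (0.0994), Pax5-Etv6 replicate 2 (0.0956) or 3 (0.077) and under median-of-ratios scaling (0.0701) or quantile normalization (0.0562).

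Of 28 tested tetraspanin partners, 11 were higher, 5 lower and 12 not called (57.1% called; median 0.71). Adam10, the protease escorted by Tspan5, Tspan14 and Tspan17, stood at 46.1, 48.6 and 51.4 TPM against 316 and 118 TPM (-1.97 ± 0.38 SE, limma adjusted p = 0.0071). Cd44, the hyaluronan receptor, was the partner with the largest fall, at 1.03, 1.46 and 0.675 TPM against 176 and 117 TPM (-6.15 ± 0.30 SE, limma adjusted p = 0.00037). The lysosomal proteins Lamp2 and Lamp1 were lower by -1.03 and -0.68 on the log2 scale (limma adjusted p = 0.021 and 0.00565); the Lamp2 call was lost without control replicate 1 (0.153), Pax5-Etv6 replicate 2 (0.0615) or 3 (0.0609). Gpr56, an adhesion receptor that binds Cd81 and Cd9, stood at 140.3, 452 and 487 TPM against 6.97 and 10.3 TPM (5.05 ± 0.54 SE, limma adjusted p = 0.00108). Socs3, a cytokine feedback inhibitor, and Ifitm3 and Ifitm2, interferon-induced proteins found with Cd81, had log2 fold changes of 4.89, 3.34 and 3.21 (limma adjusted p = 0.000512, 0.001 and 0.0162), and the Ifitm2 call was lost without control replicate 1 (0.0982) or 2 (0.143) and with voom (0.0546). The list of the wider 4-pass membrane families also held Sssca1, which is not of such a family. Of the 3 tested genes on the list, only Rom1 was called (2.05 ± 0.30 SE, limma adjusted p = 0.00262), and it was named after its values were seen.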

How the data were processed

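Polyadenylated RNA was sequenced from 3 Pax5-Etv6 and 2 control B-ALL samples. The authors deposited 1 table of TPM per library, with 24726 gene entries in each. The submitters' processing notes name HTSeq 0.5.3, DESeq2 1.4.1 and the build mm9 without their roles; the sources used here give no aligner and no gene models. Entry names can carry a tag read here as overlap (3539 entries) or as duplicate (474), and the sources do not define them. Overlap tags are mentioned with each gene that has one. In RefSeq the tagged Itga4, Itga7, Itgad, Itgb4 and Tspan4 overlap a coding gene, and the tagged Cd81, Cd82, Itga5, Itga8 and Tspan2 do not. The untagged Itga1, Itgae and Tspan31 overlap one.

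Genes reaching 1 TPM in 2 or more libraries were tested on log2(TPM + 1), a scale that understates changes of low genes, with limma 3.58.1 in R 4.3.3 (mean-variance trend, two-sided, no covariates), adjusted over all genes tested. Replicates were numbered in accession order. Whole reads were recovered from the TPM (tolerance 1e-06, 100% of 16538 entries above 0 in at least 2 libraries) for depth and voom. The fit was also run on simulated data with independent noise and group differences placed in some genes only. That run could not address organ, culture or cDNA protocol, which follow the groups here. The 2 chromatin immunoprecipitation samples were not analysed here.

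Members and gene lists were chosen with earlier results of these data known. Values are given for every called member and every member whose mean reached 10 TPM in either group, and for up to 4 called genes per list and direction, those with the largest log2 fold change among genes whose mean reached 10 TPM in the higher group. Other settings were pseudocounts of 0.1 and 5 TPM, no filter, a filter of 5 TPM, 3 other scalings, no trend, robust empirical Bayes, no tagged entries, voom, and leaving out each library.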

Additional observations from a re-analysis of the deposited data

How the results depend on the processing

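Leaving out each library in turn, 5 to 13 integrins and tetraspanins were called higher (11 with all libraries) and 2 to 9 lower (9 with all), 18 to 48 genes of the 4 pathway lists were called higher (43) and 7 to 15 lower (11), and 3635 to 6305 of all tested genes were called (6099). Each of these lowest counts came without control B-ALL replicate 1. In the other settings 8 to 13 members were higher and 8 to 9 lower, with 34 to 46 and 9 to 11 genes of the lists. Cd81, Cd82, Itgam, Itgb2, Tspan31 and Tspan5 were called in every setting that tested them. Itga4, not called, turned sign without Pax5-Etv6 replicate 2 (0.05) and without control replicate 1 (0.18), and its lowest log2 fold change was -0.48, without control replicate 2. Depth was not even, with most recovered reads in control replicate 1. Values under about 1 TPM can rest on few reads, though Itgae, at 0.715 TPM in control replicate 1, had 68 recovered reads. Of 392 values for 25 named genes, 38 lost a call, 3 gained one and 349 kept direction and call. The cause of these changes was not tested. No paired analysis was possible because the labels give no replicate numbers that pair samples across groups.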

Other observations

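Some of these genes are chromosomal neighbours in RefSeq. Itgam, Itgax and Itgad lie next to each other on chromosome 7 with no coding gene between them, and the levels of Itgam (lower in Pax5-Etv6 B-ALL) and of Itgax (0.321, 1.18 and 0.606 TPM against 0.0717 and 0.0406 TPM, below the filter) stood in opposite orders between the groups. Tspan32 and Cd81 are adjacent on chromosome 7, and Cd81 was called higher while Tspan32 was not called. Tspan18 and Cd82 are adjacent on chromosome 2, and Tspan18 stayed under 1 TPM in every library while Cd82 reached 81.5 TPM. Itga2 and Itga1 are adjacent on chromosome 13. Itga2 was above 0 only in Pax5-Etv6 replicate 3, at 0.0362 TPM, and Itga1 stood at 0.401, 0.957 and 1.01 TPM against 0.0241 and 0.041 TPM. These orders were not tested.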
